A study of Mus musculus with 15 samples.

Results

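The mature strands described here are mmu-miR-15a-5p, mmu-miR-15b-5p, mmu-miR-15b-3p, mmu-miR-16-5p, mmu-miR-195a-5p and mmu-miR-497a-5p, 6 of the 1558 mature miRNA names listed across the 15 libraries. They were chosen by name, and all 6 had reads in every library and were among the 693 names tested. The prefix mmu, for mouse, is left out below. Small RNA was sequenced from a commercial panel of mouse total RNA with AQ-seq, a protocol in which adapters with randomized ends lower the bias of ligation. The groups were 3 whole embryos, labelled 11-day, 15-day and 17-day, 3 nervous tissues (brain, spinal cord and eye), and 9 other adult tissues (heart, kidney, liver, lung, salivary gland, smooth muscle, spleen, stomach and testis). "Adult" below means the 12 libraries that are not embryos, none of whose labels gives an age. Strain, sex, treatment and the number of animals behind each RNA are not given in the labels. For the 17-day embryo the title says 17 and the source field says 15, and the title was used.

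A miRNA guides Argonaute proteins to messenger RNAs that pair with its seed, which is bases 2 to 8 of the mature strand. Strands with 1 seed can therefore share targets. The miR-15 and miR-16 family is known for restraining the cell cycle through cyclins and for lowering the survival factor Bcl2, and miR-195 and miR-497 are known for stopping the division of heart muscle cells after birth.

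The sequences below show why the 5 strands from 5p arms are treated as 1 family and the 3p strand of mir-15b is not. They are RefSeq mature sequences on GRCm38.p6, written 5′ to 3′, with the seed in capitals. All 6 members were matched by name, and miR-322-5p is added as a seed relative.

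miR-15a-5p: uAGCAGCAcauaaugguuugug
miR-15b-5p: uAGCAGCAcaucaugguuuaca
miR-16-5p: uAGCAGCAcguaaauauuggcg
miR-195a-5p: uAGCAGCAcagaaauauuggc
miR-497a-5p: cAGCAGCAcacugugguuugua
miR-322-5p: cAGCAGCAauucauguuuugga
miR-15b-3p: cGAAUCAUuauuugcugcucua

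The first 6 share their 7 seed bases. Among the members, miR-15a-5p and miR-15b-5p were alike at 18 of 22 positions counted from the 5′ end, and miR-16-5p and miR-195a-5p at 19 of 21, so that these pairs differ only outside the seed. The longest run common to miR-16-5p and miR-195a-5p was 10 bases and that of miR-15a-5p and miR-15b-5p 11 bases. RefSeq holds 10 mature names with this seed, of which 6 had reads here, namely the 5 family strands and miR-322-5p. The other 4, miR-195b, miR-6342, miR-6353 and miR-6419, had no reads in the files used here.

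The members come from 3 gene clusters, given here on GRCm38 with the annotation of GENCODE M21. Mir15a (chr14:61632027-61632110) and Mir16-1 (chr14:61631880-61631972) lie 54 bases apart on the minus strand within the noncoding gene Dleu2. Mir15a is intronic there, and Mir16-1 overlaps an annotated Dleu2 exon by 13 bases. Mir15b (chr3:69009772-69009835) and Mir16-2 (chr3:69009902-69009996) lie 66 bases apart on the plus strand in an intron of Smc4, which encodes a condensin subunit of dividing cells. Mir497 (chr11:70234717-70234800), the source of miR-497a, and Mir195a (chr11:70235042-70235135) lie 241 bases apart on the plus strand, with no host gene annotated. Both Mir16 genes give the same miR-16-5p, so its counts cannot be assigned to a cluster. Mir497b overlaps Mir497 on the opposite strand, and its mature strand had 11 reads in all libraries together.

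Depth was lowest in testis, at 148052 reads, and highest in brain, at 3161463. Since each tissue has 1 library, the tests below measure the spread between tissues or stages, some of it possibly technical, and not the spread between animals. In the library labelled smooth muscle the most abundant name was miR-194-5p, a miRNA of gut epithelium, with 14.8% of reads. That library had 490000 CPM of the 3 gut and kidney epithelium markers, the highest of all libraries. The lowest read count of a member in any library was 33, for miR-15b-3p in testis.

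The balance within the family differed between embryo and adult. miR-195a-5p and miR-497a-5p together held 2.68%, 2.10% and 3.44% of the reads of the 5 family strands in the 11-, 15- and 17-day embryos, against 4.89% to 25.45% in the adult libraries, with a median of 12.2%. All 12 adult libraries lay above all 3 embryos. The mean share was 2.74% ± 0.67 in embryos (SD, n = 3) and 13.0% ± 5.8 in adult tissues (SD, n = 12). This share does not depend on the scaling of a library, and as a sum over the members it was given no test. It compares strands of 21 or 22 bases, and how reads were assigned to each strand is not given in the sources used here.

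**Figure D1:**
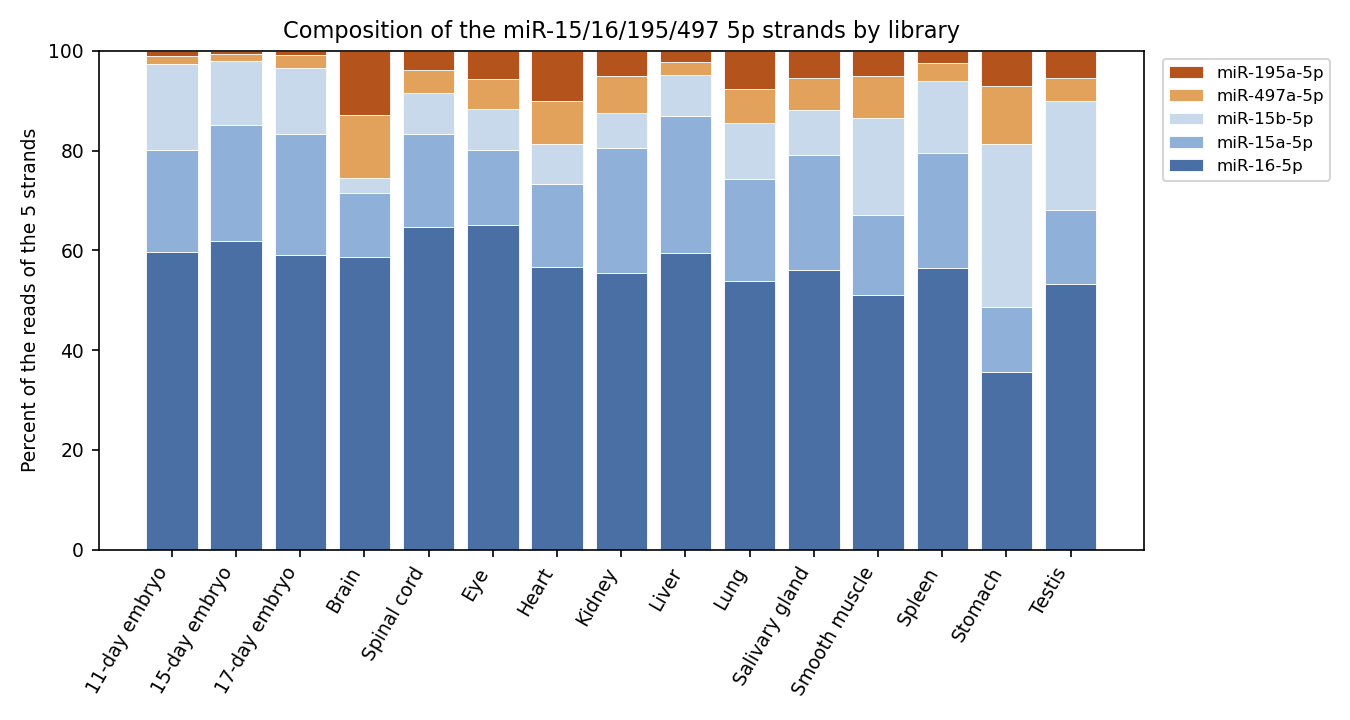
Stacked bars give the percent of the reads of the 5 family 5p strands held by each strand in each of the 15 libraries, with embryos at the left, then nervous tissues, then other adult tissues. The brown and orange segments, miR-195a-5p and miR-497a-5p, reach 25.45% in brain and at most 3.44% in the embryos.

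Among the embryos the intervals for counting error did not overlap. The share of miR-195a-5p and miR-497a-5p was 2.68% at 11 days (95% interval 2.52 to 2.85), 2.10% at 15 days (1.97 to 2.24) and 3.44% at 17 days (3.27 to 3.60). It was thus lowest at the middle stage, and no steady climb toward the adult values was seen over these libraries.

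Brain had the highest adult share, at 25.45% (25.04 to 25.85). Stomach and heart followed, both at 18.7%, and their intervals overlapped (18.06 to 19.31 in stomach and 18.32 to 19.05 in heart). Lung had 14.4%, smooth muscle 13.5%, kidney 12.5%, salivary gland 11.9% and eye 11.7%. The intervals of kidney (12.14 to 12.79) and salivary gland (11.60 to 12.16) overlapped, as did those of salivary gland and eye (11.37 to 12.08). Testis had 10.02%, spinal cord 8.50%, spleen 5.99% and liver 4.89% (4.67 to 5.12). Liver and spleen were therefore the adult tissues closest to the embryos. Brain stood at 25.45% and spinal cord at 8.50% although both are nervous tissue.

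**Figure D2:**
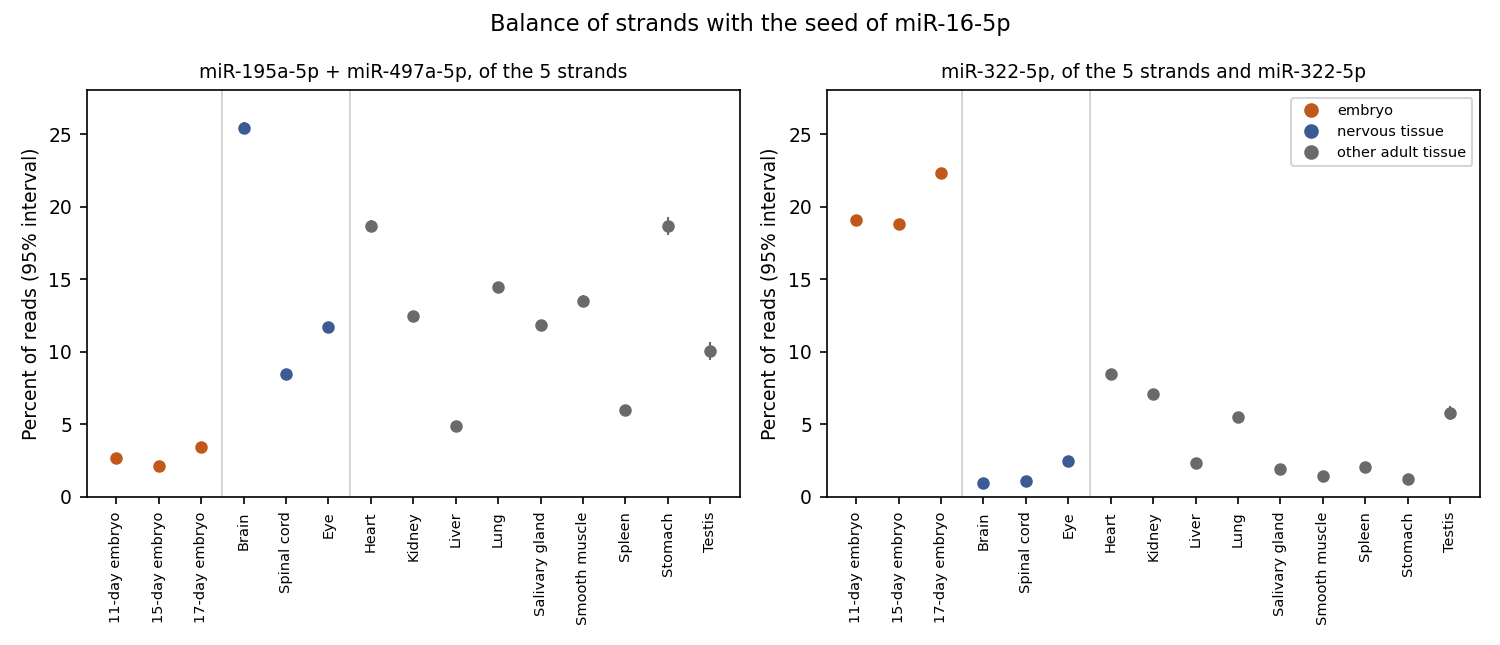
Points give, for each library, miR-195a-5p and miR-497a-5p as a percent of the reads of the 5 family strands (left) and miR-322-5p as a percent of the 5 strands and miR-322-5p (right), with exact 95% intervals for counting error. The embryos are the lowest libraries at the left, at 2.10% to 3.44%, and the highest at the right, at 18.8% to 22.3%.

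In levels, miR-195a-5p and miR-497a-5p were both lower in embryos. Levels are in CPM, counts scaled to a fixed library total, here after TMM scaling, which corrects for differences in library composition. miR-195a-5p stood at 103 CPM in the 11-day, 70.5 in the 15-day and 78.1 in the 17-day embryo, against 392 CPM in the lowest adult library (spinal cord), a median of 1613 and 3849 in the highest (lung). The groups did not overlap. The log2 fold change was -4.33 ± 0.70 (SE; edgeR quasi-likelihood test, adjusted p = 0.00018), which corresponds to a 20.2-fold lower level in embryos. miR-497a-5p stood at 186, 142 and 217 CPM in the 11-, 15- and 17-day embryos, against 454 CPM in spinal cord, a median of 2004 and 3363 in lung. Again every embryo lay below every adult library, and the log2 fold change was -3.36 ± 0.56 (SE, adjusted p = 0.00022), or 10.3-fold lower.

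These changes stand among many. In the same comparison 311 of 693 names passed at an adjusted p of 0.05, or 44.9%, of which 119 were lower in embryos (17.2% of all) and 192 higher (27.7%). Of the 6 members, 4 were lower and 0 higher. The median log2 fold change was -1.37 over the 6 members and -0.003 over all 693 names. By log2 fold change, miR-195a-5p ranked 23 and miR-497a-5p 56 from the lowest. The CPM of every embryo lay below that of every adult library for 72 names, or 10.4%. Markers of several other cell types changed in the same comparison, in both directions. Both smooth muscle markers, miR-143-3p and miR-145a-5p, fell in embryos by edgeR (adjusted p = 0.0096 and 0.0075), with a summed level of 4193 to 7120 CPM in embryos and 5729 to 313500 CPM in adult libraries. Of the 3 leukocyte markers miR-150-5p fell (edgeR adjusted p = 0.0021), and their sum was 1315 to 4671 CPM in embryos and 1396 to 265500 CPM in adult libraries. Both endothelial markers, the strands of miR-126a, fell too (edgeR adjusted p = 0.041 and 0.047), with a summed level of 4509 to 5158 CPM in embryos and 5927 to 128400 CPM in adult libraries. Of the 3 neuronal markers, miR-124-3p and miR-9-5p had positive log2 fold changes (2.62 and 3.85, edgeR adjusted p = 0.024 and 0.00022). The third, miR-128-3p, did not pass (-0.12, edgeR adjusted p = 0.9). The mean of miR-124-3p was still lower in embryos (4258 CPM) than in adult libraries (14340 CPM), since the fold change weighs the adult classes on a log scale. The 3 neuronal markers summed to 18820 to 37420 CPM in embryos, 83730 to 185400 CPM in nervous and 296 to 2444 CPM in other adult libraries. By this sum every embryo lay below the nervous and above the other adult libraries. None of these was at 0 reads, and their part in the result was not tested. Both fetal markers, miR-483-3p and miR-675-3p, rose in embryos (log2 fold change 7.83 and 6.69, edgeR adjusted p = 1.6e-06 and 2e-05). Their sum was 826.5 to 1079 CPM in embryos and 0.636 to 27.7 CPM in adult libraries, where 1 of the 2 reached 0 reads. Their part in the result was not tested either. No marker of striated muscle, hepatocytes, secretory cells or the epithelial lists passed. In tissue RNA, fewer cells of a type and less of a strand per cell cannot be told apart.

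miR-16-5p, the most abundant member in every library, was also lower in embryos. It stood at 6439, 6236 and 5068 CPM in the 11-, 15- and 17-day embryos, against 6423 CPM in spinal cord, a median of 17750 in the adult libraries and 35490 in spleen. Of the adult libraries, 11 lay above all embryos and spinal cord lay among them. The log2 fold change was -1.45 ± 0.48 (SE; edgeR, adjusted p = 0.022). With any 1 embryo left out it no longer passed, at adjusted p values of 0.057 without the 11-day, 0.055 without the 15-day and 0.062 without the 17-day embryo. Erythroid miRNAs, which accompany miR-16 in red blood cells, had summed levels of 15740 to 45910 CPM in embryos and 6701 to 181600 CPM in adult libraries for the 4 markers, none at 0 reads and none of them called, and their part in the result was not tested.

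miR-15a-5p stood at 2220, 2362 and 2088 CPM in the 11-, 15- and 17-day embryos, against 1623 CPM in brain, an adult median of 6125 and 14520 in spleen. The groups overlapped in the low adult libraries, since brain and spinal cord lay below all embryos and eye among them. The log2 fold change of -1.30 ± 0.50 (SE; edgeR, adjusted p = 0.044) lost its call without any 1 of 10 libraries, namely the 3 embryos, heart, kidney, liver, lung, salivary gland, smooth muscle and spleen (adjusted p up to 0.11).

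miR-15b-5p stood at 1858, 1286 and 1137 CPM in the 11-, 15- and 17-day embryos, against 375 CPM in brain, an adult median of 3145 and 9172 in spleen. Its log2 fold change of -1.21 ± 0.57 (SE) did not pass by edgeR (adjusted p = 0.096). It passed without brain (-1.64, adjusted p = 0.036), and against the 9 other adult libraries (-1.88, adjusted p = 0.019), where 44.2% of all names passed, with 27% higher and 17.2% lower. For miR-15b-3p the values were 102.5, 93.2 and 88.0 CPM in the 11-, 15- and 17-day embryos, against 13.2 to 357 CPM in the adult libraries (log2 fold change -0.11 ± 0.53, SE, edgeR adjusted p = 0.87). Its embryo values lay inside the adult range.

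The size of these changes rests on the scaling. Scaled to total counts alone, the median log2 fold change of all names was 1.29 in place of -0.003, and 278 names were higher and 37 lower in place of 192 and 119. With that scaling miR-195a-5p was at -3.04 (edgeR adjusted p = 0.0025) and miR-497a-5p at -2.05 (0.0073), while miR-16-5p was at -0.18 (0.79) and miR-15a-5p at -0.01 (1.0). In raw shares of the library, miR-15a-5p, miR-15b-5p and miR-16-5p together took 2.36%, 1.90% and 1.76% of reads in the 11-, 15- and 17-day embryos, against 1.06% to 5.54% in adult libraries. miR-195a-5p and miR-497a-5p together took 0.0649%, 0.0407% and 0.0624%, against 0.0977% to 0.617%. On this scale too, only the miR-195a cluster was lower in all 3 embryos than in all 12 adult libraries.

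**Figure D3:**
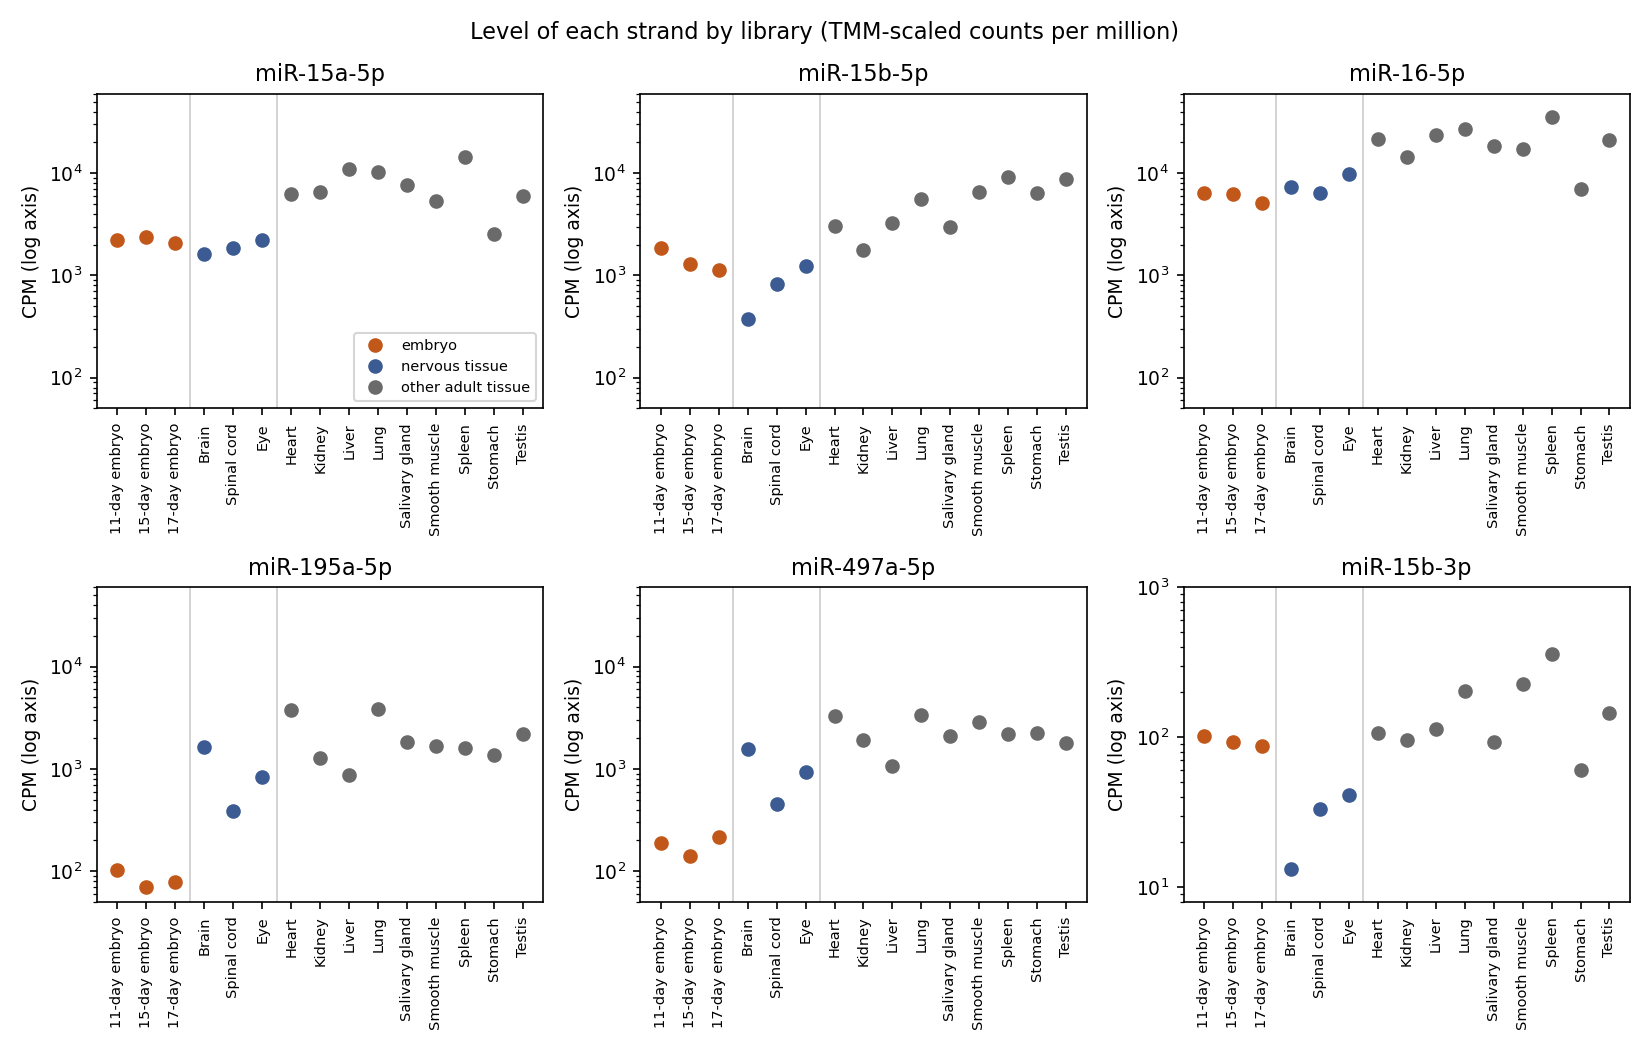
Points give the level of each member in each library in TMM-scaled CPM on log axes, with the range of the miR-15b-3p panel set lower. The embryos lie below all adult libraries for miR-195a-5p, at 70.5 to 103 CPM, and miR-497a-5p, at 142 to 217 CPM, and overlap with adult libraries for the other 4 strands.

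The share of the seed relative miR-322-5p, from the X chromosome, ran opposite to that of miR-195a-5p and miR-497a-5p. It held 19.1%, 18.8% and 22.3% of the reads of the 6 strands with this seed in the 11-, 15- and 17-day embryos, against 0.969% in brain to 8.45% in heart, so that no adult library reached an embryo. Its level of 2452 ± 104 CPM in embryos (SD, n = 3) against 1255 ± 1169 CPM in adult tissues (SD, n = 12) did not pass by edgeR (log2 fold change 1.35 ± 0.62, SE, adjusted p = 0.09). Its cluster partner miR-503-5p, whose seed differs in the last base, rose in embryos, with a log2 fold change of 4.59 ± 0.66 (SE, edgeR adjusted p = 6.4e-05). Of the 6 listed relatives these were the 2 tested, with 1 higher and 0 lower.

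In nervous tissue the miR-15 and miR-16 strands were lower than in the other adult tissues. In this comparison 284 of 693 names passed by edgeR, or 41%, of which 87 were lower in nervous tissue (12.6% of all) and 197 higher (28.4%). Of the 6 members, 4 were lower and 0 higher, and their median log2 fold change was -1.71, beside -0.21 over all names. The split of calls moved with the settings, to 226 higher and 56 lower with total counts, where the median of all names was 0.26, to 231 and 40 with no filter on low counts, while DESeq2 called 159 lower among 354 in all. The comparison shares its adult libraries with that of embryos.

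miR-15b-5p stood at 375 CPM in brain, 822 in spinal cord and 1239 in eye, against 1788 CPM in the lowest other adult library (kidney), a median of 5621 and 9172 in the highest (spleen). The groups did not overlap, which held for 4.62% of names in this direction. The log2 fold change was -2.70 ± 0.64 (SE, edgeR adjusted p = 0.0036). Its 3p strand behaved likewise, at 13.2, 33.4 and 41.1 CPM in brain, spinal cord and eye, against 60.3 CPM in stomach, a median of 113 and 357 in spleen (-2.41 ± 0.63, SE, edgeR adjusted p = 0.0068).

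miR-15a-5p stood at 1623, 1854 and 2229 CPM in brain, spinal cord and eye, against 2519 CPM in stomach, a median of 6475 and 14520 in spleen. Its groups did not overlap either (log2 fold change -2.03 ± 0.53, SE, edgeR adjusted p = 0.007). This separation rests on the scaling, since in percent of reads spinal cord (0.251%) lay above stomach (0.213%). miR-16-5p stood at 7341, 6423 and 9776 CPM in brain, spinal cord and eye, against 6915 CPM in stomach, a median of 21220 and 35490 in spleen, and only stomach lay within the nervous range. Its log2 fold change was -1.39 ± 0.49 (SE, edgeR adjusted p = 0.034), and the call was lost without brain (0.099), spinal cord (0.11) or lung (0.053). Total counts as scaling also ended it (0.14).

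miR-195a-5p and miR-497a-5p did not pass in this comparison. miR-195a-5p stood at 1624 CPM in brain, 392 in spinal cord and 836 in eye, against 880 CPM in liver, a median of 1655 and 3849 in lung (log2 fold change -1.11 ± 0.57, SE, edgeR adjusted p = 0.13). It was -1.82 without brain (0.069) and -0.84 without spinal cord (0.32), the ends of its range with 1 library left out. Brain lay inside the range of the other adult tissues, and spinal cord and eye lay below it. miR-497a-5p stood at 1564, 454 and 923 CPM in brain, spinal cord and eye, against 1063 CPM in liver, a median of 2169 and 3363 in lung (-1.24 ± 0.49, SE, edgeR adjusted p = 0.057). It passed without brain (-1.81, adjusted p = 0.035), without liver (0.04), and without the 11-day or the 17-day embryo (both 0.048). Whether the change of miR-195a differs from that of miR-15b was not tested. By edgeR 2 of the 4 erythroid markers, 2 of the 3 leukocyte markers and both smooth muscle markers were also lower here. The summed erythroid level was 6701 to 17450 CPM in nervous and 9058 to 181600 CPM in other adult libraries. That of the leukocyte markers was 1396 to 2600 CPM in nervous and 3099 to 265500 CPM in other adult libraries, and that of the smooth muscle markers 5729 to 20620 CPM in nervous and 28090 to 313500 CPM in other adult libraries. No marker of the erythroid, leukocyte and smooth muscle lists was at 0 reads. All 3 neuronal markers and all 5 markers of lens, retina and pigment epithelium were higher in nervous tissue by edgeR. The 5 summed to 3637 CPM in spinal cord and 227400 CPM in eye, the ends of the nervous range. Other adult libraries had 194 to 6488 CPM, so that spinal cord lay below salivary gland, the highest of them. The fetal marker miR-483-3p was higher too, at a mean of 13.4 CPM in nervous and 2.73 CPM in other adult libraries. The other fetal marker, miR-675-3p, did not pass (log2 fold change -0.53, edgeR adjusted p = 0.71). The hepatocyte marker miR-122-5p was lower. Of the striated muscle markers miR-208a-3p was lower, while miR-1a-3p, miR-133a-3p and miR-499-5p did not pass. Of the gut and kidney epithelium markers miR-192-5p and miR-194-5p were lower, and miR-215-5p did not pass. The part of the markers in the result was not tested.

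Spleen had the highest level of 4 of the 6 members. In CPM it led for miR-15a-5p, miR-15b-5p, miR-15b-3p and miR-16-5p, and lung led for miR-195a-5p and miR-497a-5p. The order rests on the scaling. In unscaled percent of reads testis led for miR-15b-5p (1.34%), miR-16-5p (3.27%), miR-195a-5p (0.340%) and miR-497a-5p (0.277%). The lowest adult levels in CPM were those of brain for miR-15a-5p, miR-15b-5p and miR-15b-3p, and of spinal cord for miR-16-5p, miR-195a-5p and miR-497a-5p. In percent of reads brain stayed lowest for the same strands. The lowest adult library was then stomach for miR-16-5p and liver for miR-195a-5p and miR-497a-5p. As a share of all reads, the 5 family strands ranged from 1.24% in eye to 6.15% in testis, and embryos had 2.42%, 1.94% and 1.82% at 11, 15 and 17 days. The 3 highest libraries were testis, spleen and lung, at 6.15%, 4.87% and 3.50%.

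The balance between miR-15b-5p and miR-15a-5p varied more between adult tissues than between embryo and adult. miR-15b-5p was 45.6%, 35.3% and 35.3% of the reads of both in the 11-, 15- and 17-day embryos, against 18.8% in brain, an adult median of 34.0% and 71.55% in stomach. The 15- and 17-day embryos had overlapping intervals, and the 11-day embryo lay above both. miR-15b-5p outnumbered miR-15a-5p in stomach (95% interval 70.5 to 72.6), testis (59.2%, 57.6 to 60.9) and smooth muscle (55.0%, 54.1 to 55.9). It was the minor strand elsewhere, down to 23.0% in liver, 21.6% in kidney and 18.8% in brain. Stomach was also the library in which miR-16-5p held the smallest part of the family, at 35.7%, against 51.1% to 65.2% in the other 14 libraries.

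The other strands of the miR-16 hairpins do identify their cluster. miR-16-2-3p, from the Mir15b cluster, made up 58.4%, 55.6% and 53.7% of the reads of miR-16-1-3p and miR-16-2-3p in the 11-, 15- and 17-day embryos, against 48.2% in brain to 86.6% in eye. Of the adult libraries, 11 lay above all embryos and brain lay below them, but the interval of the 11-day embryo (51.9 to 64.7) overlapped with those of brain, spinal cord, kidney, liver, lung, salivary gland, stomach and testis. Over the 15 libraries its Pearson r with the share of miR-15b-5p was 0.29 and Spearman's rho 0.425. In the 12 adult libraries r was 0.36 and rho 0.61, all as descriptions of points that share library and depth. In stomach miR-16-2-3p held 65.8% (48.6 to 80.4, 38 reads), near the adult median of 67.6%, where miR-15b-5p held 71.55%. These shares rest on few reads, from 38 in stomach to 613 in spleen.

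miR-195a-5p and miR-497a-5p, although from 1 cluster, did not keep a fixed ratio. miR-195a-5p was 35.6%, 33.2% and 26.5% of the reads of both in the 11-, 15- and 17-day embryos, against 36.7% in smooth muscle, an adult median of 46.4% and 55.1% in testis. All 12 adult libraries lay above the embryos, but the intervals of smooth muscle (35.3 to 38.2) and stomach (35.8 to 39.4) overlapped with that of the 11-day embryo (32.6 to 38.7). miR-195a-5p was the more abundant of both in testis, heart (53.8%), lung (53.4%) and brain (50.95%, 50.03 to 51.9).

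**Figure D4:**
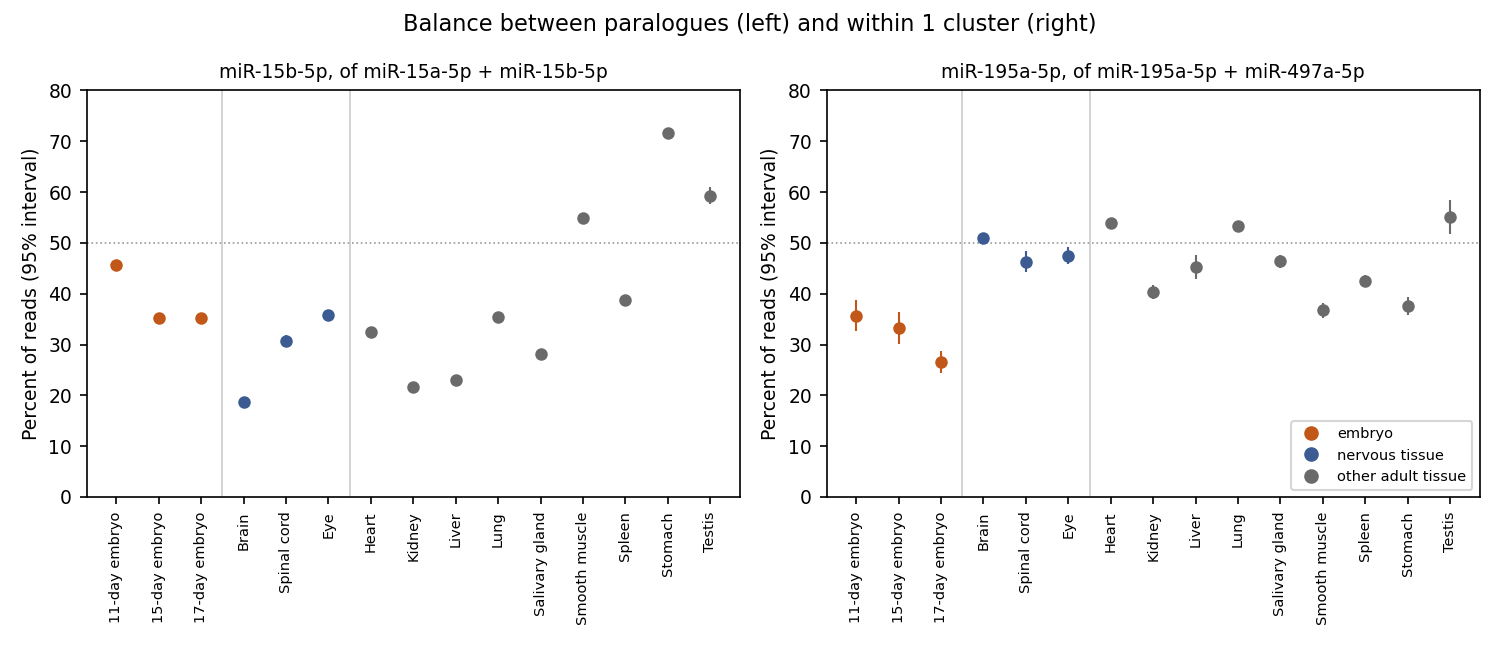
Points give miR-15b-5p as a percent of miR-15a-5p and miR-15b-5p reads (left) and miR-195a-5p as a percent of miR-195a-5p and miR-497a-5p reads (right) in each library, with exact 95% intervals, and the dotted line marks equal reads. Stomach, testis and smooth muscle lie above the line at the left, and the embryos are lowest at the right, at 26.5% to 35.6%.

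The 3p strand of mir-15b, whose seed differs, made up a larger part of its hairpin in embryos. Its share of the 5p and 3p reads was 5.23% (4.70 to 5.79), 6.75% (6.11 to 7.44) and 7.18% (6.58 to 7.82) in the 11-, 15- and 17-day embryos, against 0.943% in stomach, an adult median of 3.37% and 5.09% in kidney (4.33 to 5.95). All 3 embryos lay above all 12 adult libraries, although the intervals of kidney and spinal cord (3.17 to 4.75) overlapped with that of the 11-day embryo. The 5p share was 93.6% ± 1.0 in embryos (SD, n = 3) and 96.8% ± 1.1 in adult tissues (SD, n = 12), a difference of -3.18 points for which a two-sided exact permutation test over 455 splits gave p = 0.0022, its smallest possible value. The embryos are stages of 1 kind of sample, so this p may be too small. In the edgeR test of arm use over all hairpins the log2 odds of the 5p arm changed by -1.098 ± 0.338 (SE, adjusted p = 0.019). This call was lost without the 15-day (0.085) or the 17-day embryo (0.086), and in limma on log2 ratios (0.083).

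The other 3 hairpins changed in the same direction. Of 238 hairpins tested 62 passed, or 26.1%. The 5p share was lower in embryos for 32 of them (13.4% of all) and higher for 30 (12.6%). The 5p arm led in every library for all 4 hairpins, so none switched its dominant arm. mir-15a had a 3p share of 1.24%, 1.16% and 1.54% in the 11-, 15- and 17-day embryos, against 0.446% to 0.809% in adult libraries (log2 odds of 5p -1.09 ± 0.26, SE, edgeR adjusted p = 0.0028). mir-195a had 2.52%, 3.34% and 4.19%, against 0.396% to 2.04% (-1.80 ± 0.41, SE, edgeR adjusted p = 0.0022), from 9, 10 and 19 reads of its 3p strand in the embryos. With so few reads, intervals of embryos and adult libraries overlapped for mir-195a, as did those of the 11- and 15-day embryos with stomach, testis and spinal cord for mir-15a. For mir-15a, mir-15b and mir-195a the 5p share of every embryo lay below that of every adult library, which held for 6.72% of hairpins.

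mir-497a had a 3p share of 1.101% in the 11-day embryo, inside the adult range of 0.618% to 3.32%, and 4.44% and 5.12% in the 15- and 17-day embryos. Its change in log2 odds of 5p was -1.34 ± 0.41 (SE, edgeR adjusted p = 0.019), a call lost without the 15-day (0.14) or the 17-day embryo (0.22) and in limma (0.1). In levels, 2 of the 5 other strands of these hairpins fell in embryos by edgeR and 0 rose, beside 17.2% of all names lower and 27.7% higher. These were miR-195a-3p (2.84 ± 0.51 CPM in embryos, SD, n = 3, against 16.9 ± 10.4 CPM in adult tissues, SD, n = 12, edgeR adjusted p = 0.0022) and miR-497a-3p (6.79 ± 4.82 against 34.2 ± 31.0 CPM, edgeR adjusted p = 0.035). miR-15a-3p, miR-16-1-3p and miR-16-2-3p had adjusted p values of 0.72, 0.63 and 0.36. In nervous tissue 4 of these 5 fell by edgeR, all but miR-195a-3p (adjusted p = 0.08), beside 12.6% of all names lower. Some of these levels rest on few reads, such as 9 of miR-16-1-3p in eye and 9 of miR-497a-3p in spinal cord.

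**Figure D5:**
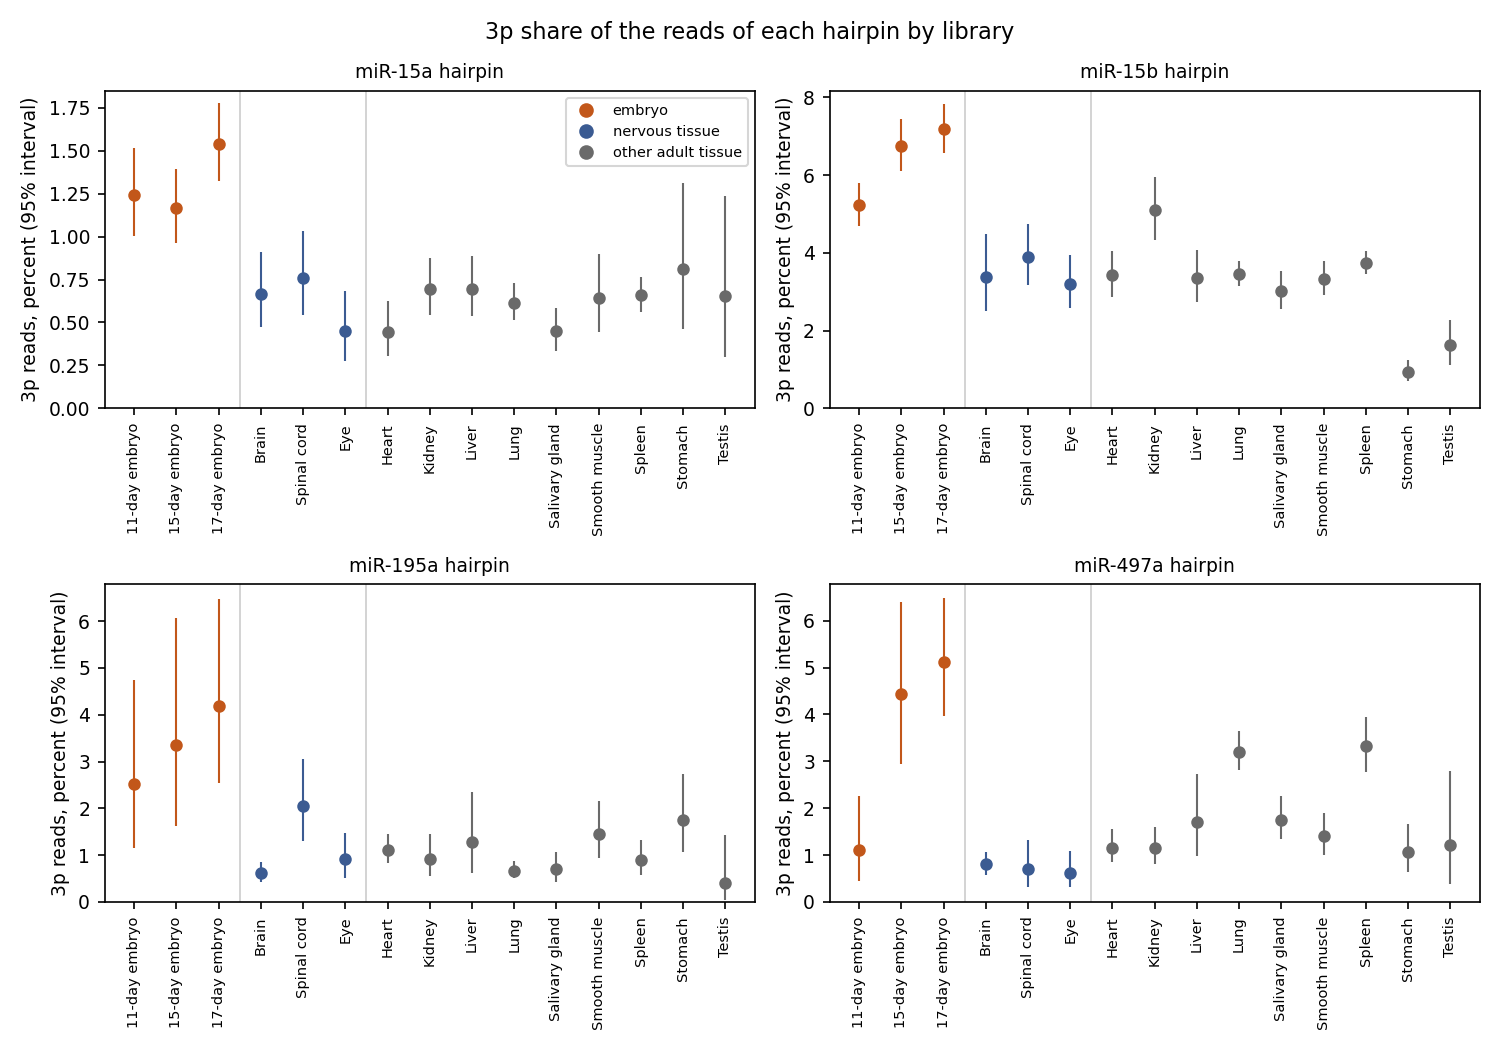
Points give the 3p strand as a percent of the 5p and 3p reads of each hairpin in each library, with exact 95% intervals and a separate axis for each panel. The embryos lie above all adult libraries for mir-15a, mir-15b and mir-195a, while the 11-day embryo lies at 1.101% for mir-497a.

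Across the 15 libraries the levels of miR-195a-5p and miR-497a-5p were the most alike of any pair of members. Likeness was Pearson's r of log2 CPM, given as a description of libraries that share composition and scaling. miR-195a-5p was most like miR-497a-5p (r = 0.98), and miR-15a-5p most like miR-16-5p (0.95). The r of miR-195a-5p with miR-15a-5p was 0.60, with miR-15b-5p 0.48 and with miR-15b-3p 0.17. Outside the members, the names most like miR-195a-5p were miR-29a-5p (0.90), miR-30d-5p (0.90) and its own other strand miR-195a-3p (0.89), and for miR-497a-5p they were miR-195a-3p (0.92), miR-30d-5p (0.87) and miR-29a-5p (0.87). miR-15a-5p was followed by miR-32-5p (0.89), miR-15a-3p (0.87) and miR-32-3p (0.87), and miR-16-5p by miR-32-3p (0.84), miR-26b-5p (0.83) and miR-16-2-3p (0.81). miR-15b-3p was most like miR-16-2-3p of the same cluster (0.95), then miR-25-3p (0.94) and miR-93-5p (0.90). miR-15b-5p was also most like miR-16-2-3p (0.87), then miR-145b (0.84) and miR-511-3p (0.83).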

How the data were processed

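Each deposited file gives, for 1 library, the authors' read count of each mature miRNA. The submitters' processing notes name bcl2fastq 1.8.4, cutadapt, BWA, bedtools and the build mm10. What each tool did, which miRNA annotation was used and how multiply mapping reads were handled is not given in the sources used here, so strands of near-identical sequence may have shared reads. Names without a read are not listed and were taken as 0. Spike-in RNAs named in the protocols were not used here.

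Counts were tested with the edgeR 4.0.16 quasi-likelihood test in R 4.3.3, after filterByExpr and TMM, in 1 fit of 3 classes (embryo, nervous, other adult). The adult side was the mean of the nervous and other adult class values on the log scale, weighted by their 3 and 9 libraries. Such a mean can differ, even in direction, from the mean CPM of the 12 libraries. Standard errors were taken as the log2 fold change over the square root of the test's F. The arm test fitted the counts of both arms, with library as a term, and took hairpins that reached 20 reads in 8 or more libraries. P-values were adjusted by Benjamini-Hochberg over all names or hairpins, with a threshold of 0.05. Both fits were tested on simulated data. CPM values refer to the reads left by the filter, which removed 13.1% of testis reads and at most 0.215% of others. Shares carry exact Clopper-Pearson 95% intervals, which cover counting error only, since PCR reads are not independent molecules. Likeness used log2 CPM with a prior count of 2. DESeq2 1.42.0 and limma 3.58.1 served as alternatives.

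All members were reported whatever their values, with the other strands of their hairpins, their seed relatives and the 3 names most like each. The members and lists were chosen with earlier results of these data known.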

Additional observations from a re-analysis of the deposited data

How the results depend on the processing

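The calls on miR-195a-5p and miR-497a-5p in embryos kept their direction and passed in every alternative run. Embryo calls over all names numbered 311, against 157 (83 higher, 74 lower) when the 12 adult libraries formed 1 class, 215 higher and 69 lower with no filter, 200 higher and 169 lower by DESeq2, and 228 to 348 with 1 library left out. In the 1-class fit miR-16-5p (-1.56, adjusted p = 0.073) and miR-15a-5p (-1.50, 0.14) lost their calls, as they did with no filter on low counts (-1.24, 0.13, and -1.09, 0.2). DESeq2 called miR-15b-5p in embryos (-1.18, 0.039) and miR-497a-5p in nervous tissue (0.0053), and RLE size factors called the second (0.046). Without a filter miR-16-5p lost its nervous call (-1.14, 0.16). Nervous calls numbered 284, and 186 to 303 with 1 library left out, the lowest without brain. Hairpins called for arm use numbered 62, against 19 in limma, and 28 to 70 with 1 library left out, with 28 without the 15-day and 35 without the 17-day embryo. miR-15b-3p, which was not called in embryos, changed sign with total counts (1.16), no filter (0.113), and testis and smooth muscle both left out (0.0604), and ranged from -0.505 to 0.143 with 1 library left out, positive without spleen (0.143) or smooth muscle (0.00448). The embryo minus adult difference in the share of miR-195a-5p and miR-497a-5p was -10.3 points. It was -22.5 without miR-16-5p in the denominator, since that strand is the largest, and -11.0 to -9.15 with 1 library left out. That of the mir-15b 5p share was -3.76 to -2.78 with 1 library left out. Its exact p of 0.0027 to 0.011 is in each case the smallest that the remaining libraries allow, and so says nothing of stability. Leaving out testis and smooth muscle, and adding miR-322-5p to the denominator, were chosen after seeing the data. The causes of these changes were not tested unless stated. No paired analysis was possible, since each tissue or stage has 1 library and the labels do not name the animals. Depth limits the 3p shares most, with 2 reads of miR-195a-3p in testis.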
